A study of Mus musculus with 6 samples.

Results

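POU domain transcription factors were followed in cells of the mouse Atoh1 lineage. Members were all probe sets annotated with 1 gene symbol among 9 named POU genes. The table held 16 such probe sets, for 7 of the 9 genes: Pou2f2, Pou3f1, Pou3f2, Pou3f3, Pou3f4, Pou4f1 and Pou6f1. These are 7 of 18193 gene symbols with a probe set of their own in the table. Pou2f1 and Pou4f2 had no such probe set and were not analysed here, and 1 further probe set that shares Pou3f3 with another symbol was left out.

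The cells came from Swiss Webster embryos, all carrying Atoh1-CreER and the EGFP reporter RCE. A CreER recombinase under Atoh1 control acts only while tamoxifen is present, so EGFP then marks cells that expressed Atoh1 around the dose, and their descendants. Dams received tamoxifen by gavage (4 mg per 35 g) at E10.5 for the early group or at E13.5 for the late group. The r1/isthmus region of both groups was dissected at E14.5, and EGFP-positive cells were sorted. Each group held 3 samples, each on 1 Affymetrix array, and this number limits the precision. Separate litters or pools are not named in the labels, so each p-value reflects array-to-array spread, whose technical and biological parts cannot be told apart. There was no untreated or unlabelled control group, and the day of labelling and the time from labelling to collection differed together.

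A POU protein binds DNA through a POU-specific domain and a POU homeodomain joined by a linker, and the classic site is an octamer sequence. The family falls into classes by sequence. Class II (the Pou2f genes) includes the broadly expressed Oct1 and Oct2 of B cells and neurons. Class III (the Pou3f or Brn and Oct6 genes) acts in neural progenitors and young neurons, often beside Sox proteins. Class IV (the Pou4f or Brn3 genes) acts in sensory and other projection neurons after they leave the cell cycle, and class VI (Pou6f) is found in brain.

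In these cells Pou3f1 and Pou3f2 were called higher in the early group and Pou4f1 was called higher in the late group. By their brightest probe sets, the early group had 4.79-fold more Pou3f1 signal and 3.60-fold more Pou3f2 signal, while the late group had 2.87-fold more Pou4f1 signal. The Pou4f1 call was fragile, being lost in 4 of 6 fits with 1 array left out. For Pou3f2, 2 of 3 tested probe sets were called. Pou3f3 differed by 1.05-fold, well within the spread of the arrays. Pou3f4 and Pou6f1 did not pass the test, and Pou2f2 was too dim on all arrays to be tested.

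Values are MAS5 signals, a linear intensity in which every array has been scaled to the same trimmed mean. A probe set was tested if its signal lay above the array's median (97.7 to 112 units) on at least 3 of the 6 arrays, and 10 of the 16 passed that filter, for 6 genes. The test was limma on log2 signals, early minus late, with Benjamini-Hochberg adjustment over 23491 probe sets and a threshold of 0.05. Of the 10, 4 were called higher in the early group and 1 in the late group, against a background of 13.4% and 12.5% of all tested probe sets (25.9% in both directions). The 4 early calls come from 2 genes, and a probe set bright in 1 group passes the filter through that group alone, so these counts are a description. In 7 of the 10 the arrays of the groups did not overlap, as in 46.9% of all tested probe sets. An exact two-sided permutation test of 3 against 3 arrays cannot give a p below 0.1. The median log2 difference over all tested probe sets was -0.09. Because RNA was measured in bulk, fewer expressing cells and less RNA per cell cannot be told apart.

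**Figure D1:**
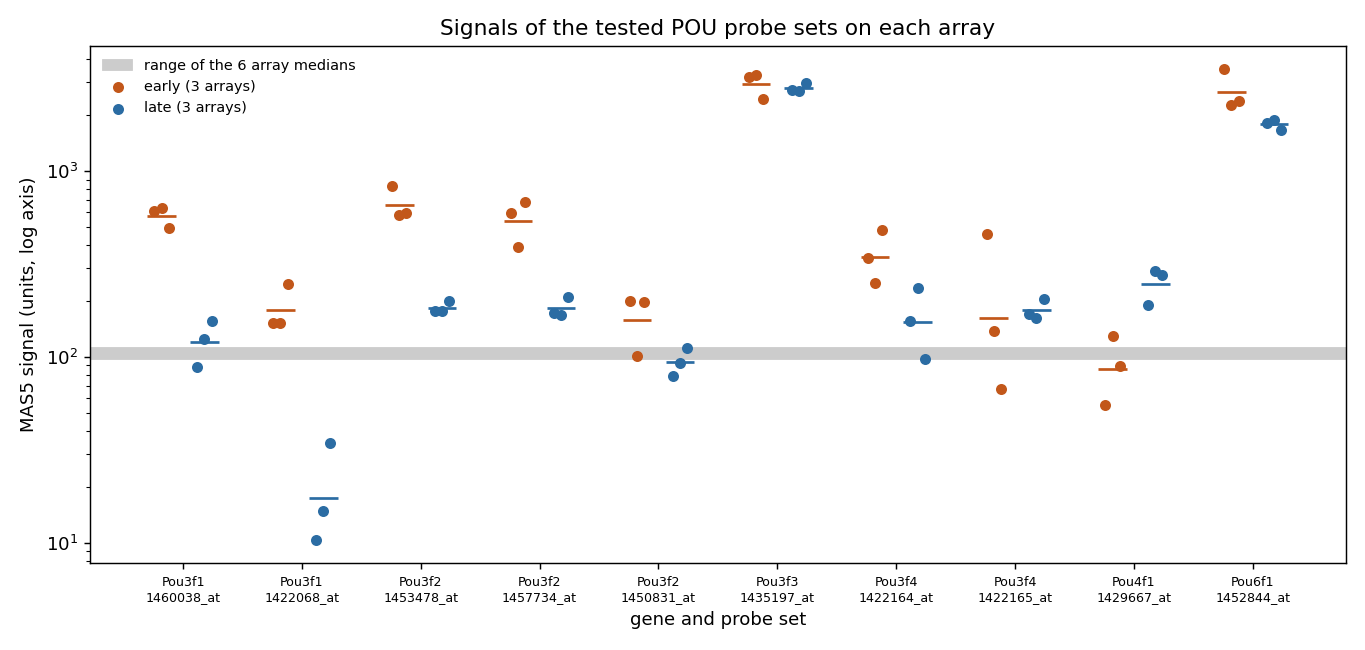
Signal of each tested POU probe set (MAS5 units, log axis) on the 3 early and 3 late arrays; points are arrays, short lines the means of the log signals, and the grey band the range of the 6 array medians (97.7 to 112 units). Pou3f1 and the brighter Pou3f2 probe sets separate with the early arrays above, Pou4f1 separates with the late arrays above, and Pou3f3 overlaps, between 2445 and 3298 units.

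The promoters of class III genes are shown because this class held most of the called probe sets, and the capitals mark each CCAAT box (CCAAT on either strand, so also ATTGG). Sequences are RefSeq's, on GRCm38.p6, 5′ to 3′ on the gene's strand, and each ends at the base before the annotated start. RefSeq's promoter table gave a window for 5 of the 6 genes with a tested probe set, with none for Pou3f1. The class III calls were of Pou3f1 and Pou3f2 alone, so Pou3f3 and Pou3f4 are shown as uncalled members of the class. Pou3f2 lies at chr4:22488367-22488616 on the minus strand, Pou3f3 at chr1:42695518-42695767 on the plus strand and Pou3f4 at chrX:110814129-110814378 on the plus strand.
Pou3f2: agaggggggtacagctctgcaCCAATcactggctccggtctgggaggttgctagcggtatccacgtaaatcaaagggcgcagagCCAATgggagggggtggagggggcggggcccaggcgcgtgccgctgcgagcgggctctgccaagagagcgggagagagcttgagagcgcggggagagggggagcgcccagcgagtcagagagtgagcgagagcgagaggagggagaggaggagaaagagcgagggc
Pou3f3: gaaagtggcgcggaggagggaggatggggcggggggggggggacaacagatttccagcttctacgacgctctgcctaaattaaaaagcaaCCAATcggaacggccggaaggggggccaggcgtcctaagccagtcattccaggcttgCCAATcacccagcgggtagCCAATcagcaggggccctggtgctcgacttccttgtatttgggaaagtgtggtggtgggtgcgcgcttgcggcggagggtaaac
Pou3f4: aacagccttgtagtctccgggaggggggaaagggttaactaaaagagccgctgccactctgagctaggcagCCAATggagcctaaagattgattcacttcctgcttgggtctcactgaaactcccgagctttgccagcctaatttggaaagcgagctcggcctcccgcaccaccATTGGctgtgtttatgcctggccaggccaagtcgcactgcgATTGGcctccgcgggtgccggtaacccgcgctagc

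The CCAAT box was found 2 times for Pou3f2, beginning 229 and 166 bases before the start. It was found 3 times for Pou3f3, at 160, 103 and 84 bases, and 3 times for Pou3f4, at 179, 76 and 35 bases. Of 32807 windows of 250 bases, 33.8% held at least 1 CCAAT and 2.79% held 3 or more. The windows of Pou4f1 and Pou6f1 held none.

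The Pou4f1 window held an E-box, the binding sequence of basic helix-loop-helix proteins such as Atoh1, in the form CAGCTG. It is shown in capitals for the only member called in the other direction, with its flanks at chr14:104468100-104468129 on the minus strand, 118 bases before the start that the promoter table uses. Of that window, 119 of 250 bases, the E-box among them, lie within the gene's annotated span in RefSeq, so by that span the E-box is inside the gene. Only 30 bases around it are shown.
Pou4f1: gacagacggagaCAGCTGctgtctgtcagc

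CAGCTG was present in 13% of all windows, and none of the class III windows held it. The looser E-box CANNTG was present in 66.2% of windows, 2 times for Pou4f1 (CAGCTG among them), 1 time for Pou6f1 and 0 times in the class III windows. Of the Pou6f1 window, 77 of 250 bases also lie within that gene's annotated span. The octamer ATGCAAAT (1.60% of windows, both strands) and the homeodomain core TAATTA (4.85%) were not found in any of the 5 windows. Windows were rich in G and C, at 66.8% for Pou3f2, 60.8% for Pou3f3, 58.0% for Pou3f4, 78.0% for Pou4f1 and 68.0% for Pou6f1, against a median of 52.4%. A match is a match of letters and no measured binding.

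Pou3f1 (Oct6, also called Scip or Tst1), best known from Schwann cells and from layer-specific cortical neurons, had 2 tested probe sets. The brighter one (1460038_at) gave 607, 636 and 495 units on early replicates 1, 2 and 3, and 88.5, 125 and 156 units on late replicates 1, 2 and 3. All early arrays lay above all late arrays, the lowest early array by more than the whole range of the late ones. The means were 579 ± 74.7 against 123 ± 34.0 units (SD, n = 3 each), a log2 difference of 2.26 ± 0.26 (SE), with a 95% interval of 1.63 to 2.90 (limma adjusted p = 0.00291). Of all tested probe sets, 93.0% had a smaller absolute difference.

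The dimmer Pou3f1 probe set (1422068_at) gave 153, 152 and 245 units on the early arrays and 10.4, 14.8 and 34.4 units on the late arrays. The groups again did not overlap, and all 3 late arrays lay below their array's median. The log2 difference was 3.36 ± 0.48 (SE; limma adjusted p = 0.00532), or 10.2-fold. That size rests on how far below the median the late signals fell: with signals below an array's median raised to it, the fold was 1.73 and the call held (limma adjusted p = 0.039). All 3 late values are then array medians, so that p sets the early signals against a near constant and adds no support. Both Pou3f1 calls also held when any 1 array was left out (limma adjusted p = 0.00818 to 0.0155 for the brighter and 0.00974 to 0.0253 for the dimmer probe set).

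Pou3f2 (Brn2), a factor of cortical and hypothalamic neuron production and one of the factors used to turn fibroblasts into neurons, had 3 tested probe sets, all with a higher early mean. The brightest (1453478_at) gave 828, 583 and 596 units on the early arrays and 176, 175 and 200 units on the late arrays. The late arrays lay close together and the lowest early array stood far above them. The means were 669 ± 138 against 184 ± 13.7 units (SD, n = 3 each), a log2 difference of 1.85 ± 0.21 (SE; limma adjusted p = 0.00272).

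The next Pou3f2 probe set (1457734_at) gave 595, 388 and 682 units on the early arrays and 173, 167 and 210 units on the late arrays. These groups did not overlap either, with early replicate 2 the lowest of its group. On the log2 scale the difference was 1.57 ± 0.26 (SE), which is 2.96-fold (limma adjusted p = 0.00888). That call was lost when early replicate 3 and late replicate 3, whose sex-linked signals stand apart, were left out together (limma adjusted p = 0.0696).

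The third Pou3f2 probe set (1450831_at) gave 199, 102 and 196 units on the early arrays and 79.1, 92.3 and 112 units on the late arrays. Early replicate 2 lay among the late values, and the late arrays were near or below their medians. The log2 difference of 0.76 ± 0.32 (SE) was not called (limma adjusted p = 0.135). Without early replicate 2 it was 1.08 and was called (limma adjusted p = 0.0233).

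Pou3f3 (Brn1), a close relative of Pou3f2 that acts with it in cortical neurons, was bright in both groups. Its tested probe set (1435197_at) gave 3189, 3298 and 2445 units on the early arrays and 2715, 2712 and 2982 units on the late arrays. The late values lay inside the early range. The means were 2977 ± 464 against 2803 ± 155 units (SD, n = 3 each), and the log2 difference of 0.08 had a 95% interval of -0.39 to 0.55 (limma adjusted p = 0.802). This interval covers folds from 0.762 to 1.46, early over late. A second Pou3f3 probe set (1422331_at) stood between 1.35 and 55.2 units, below the median on every array, and was not tested.

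Pou3f4 (Brn4), known for roles in the inner ear and striatum and encoded on the X chromosome, had 2 tested probe sets that differed. One (1422164_at) gave 340, 249 and 482 units on the early arrays and 157, 234 and 97.6 units on the late arrays. The groups did not overlap, but early replicate 2 and late replicate 2 nearly met. The log2 difference was 1.17 ± 0.40 (SE), with a 95% interval of 0.21 to 2.13, and it did not pass (limma adjusted p = 0.0773). With signals below the array's median raised to it, the difference was 1.16 and passed (limma adjusted p = 0.0453).

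The other Pou3f4 probe set (1422165_at) gave 460, 137 and 66.8 units on the early arrays and 170, 162 and 205 units on the late arrays. Early replicate 1 was the highest of all 6 and early replicate 3 the lowest. Its log2 difference was -0.14 ± 0.67 (SE; limma adjusted p = 0.896), and it was 0.49 without early replicate 3 (limma adjusted p = 0.528). The probe sets of this gene, which the platform annotation ties to the same source sequence, gave no common direction.

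**Figure D2:**
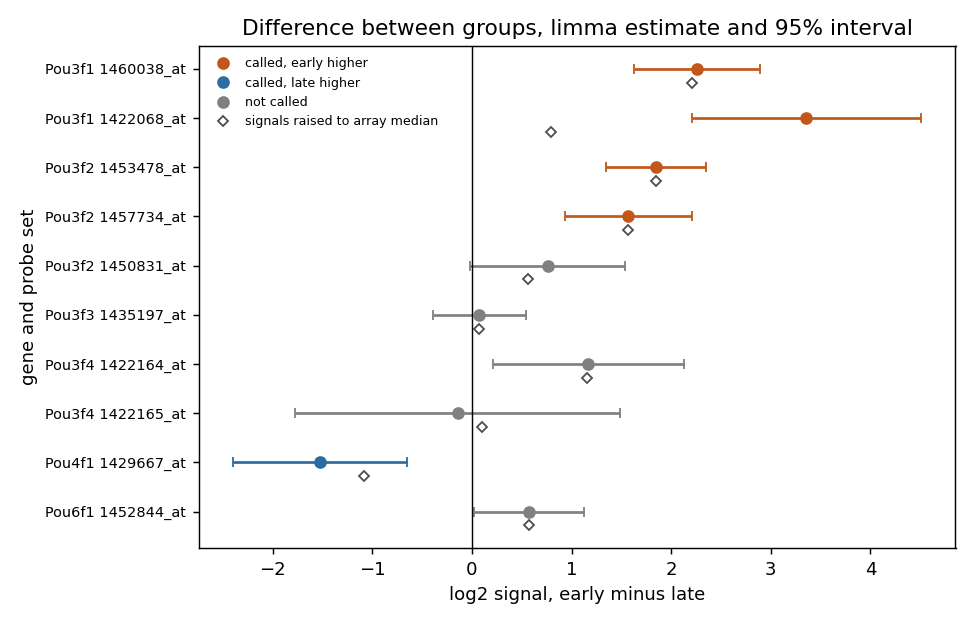
Log2 difference in signal, early minus late, for each tested POU probe set; filled points are limma estimates from 3 against 3 arrays with 95% intervals, coloured by call, and open diamonds the difference after signals below an array's median were raised to it. The diamond of the dimmer Pou3f1 probe set falls from 3.36 to 0.79, and Pou4f1 is the only called member left of 0.

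Within class III, the members were set against each other on the same array, which asks whether they changed unequally between the groups. The level of such a ratio has no meaning, since probe sets differ in brightness, so only its change between groups was read. Each gene was read by its brightest probe set. Another probe set of the same gene can give another change: the 2 tested Pou3f4 probe sets had log2 differences of 1.17 and -0.14. The log2 ratio of Pou3f1 to Pou3f3 was -2.36 ± 0.05 on the early and -4.54 ± 0.35 on the late arrays (SD, n = 3 each), a change of 2.18. For Pou3f2 to Pou3f3 it was -2.16 ± 0.30 on the early and -3.93 ± 0.03 on the late arrays, a change of 1.77. Neither pair of groups overlapped (exact permutation p = 0.1 for each, the smallest possible, and 0.2 after Benjamini-Hochberg adjustment over 6 pairs).

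For the other 4 pairs the groups overlapped. Pou3f1 to Pou3f2 changed by 0.41, with early arrays from -0.45 to 0.13 and late arrays from -0.99 to -0.35. Pou3f1 to Pou3f4 changed by 1.09, Pou3f2 to Pou3f4 by 0.68 and Pou3f3 to Pou3f4 by -1.09, with exact permutation p = 0.2 for each of the 4 and 0.2 after adjustment. With 3 arrays in each group, no pair could pass the threshold.

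**Figure D3:**
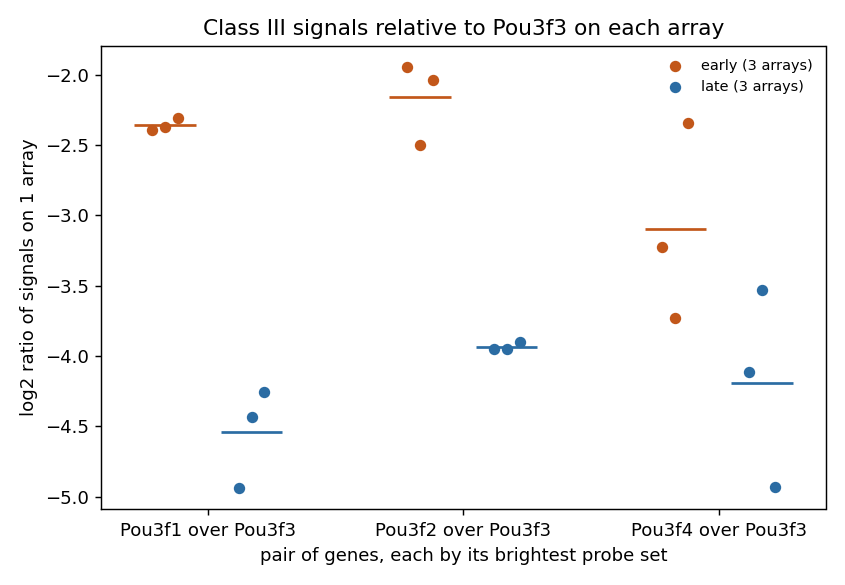
Log2 ratio of the signal of Pou3f1, Pou3f2 and Pou3f4 to that of Pou3f3 on the same array, each gene by its brightest probe set; points are the 3 early and 3 late arrays and lines the group means. The first pair of columns shifts by 2.18 and the second by 1.77 without overlap, while the groups overlap for Pou3f4.

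Pou4f1 (Brn3a), a factor of sensory ganglia, red nucleus, habenula and other projection neurons, was the only member called higher in the late group. Its brighter probe set (1429667_at) gave 55.0, 130 and 89.7 units on early replicates 1, 2 and 3 and 190, 291 and 275 units on late replicates 1, 2 and 3. The groups did not overlap, all 3 late arrays lay above their median, and only 1 early array did. The means were 91.5 ± 37.5 against 252 ± 54.2 units (SD, n = 3 each), and signal fell by 1.52 ± 0.36 (SE) on the log2 scale from late to early, with a 95% interval of -2.40 to -0.65 (limma adjusted p = 0.0273). With low signals raised to the array median the late group was 2.12-fold higher (limma adjusted p = 0.00913). That floor gives the dim early arrays nearly equal values and narrows their spread, so the smaller p adds no support.

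The Pou4f1 call depended on the arrays and on the set tested. It was lost without early replicate 3 (limma adjusted p = 0.0573), late replicate 1 (0.0539), late replicate 2 (0.0943) or late replicate 3 (0.0982), without both replicates 3 (0.165), and with no filter on dim probe sets (0.0944). The second Pou4f1 probe set (1429668_at) gave 37.7, 4.48 and 34.4 units on the early and 53.4, 56.9 and 51.2 units on the late arrays. These did not overlap, again with the late arrays above, but all 6 lay below their medians and the probe set was not tested.

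Markers of sensory ganglion neurons, a cell type known for Pou4f1, were examined beside it. Of 5 listed genes in the table, only Tlx3 was tested, and it was 4.69-fold higher in the late group (limma adjusted p = 0.00141). It was above the median on no early array and so passed the filter through the late arrays alone. Tlx3 is also a factor of excitatory hindbrain neurons. Isl1, which sensory neurons also express, stood at 104, 110 and 4.40 units on the early and 25.9, 21.7 and 10.7 units on the late arrays. Prph, a filament of peripheral neurons, and Prrxl1, a homeobox factor of sensory neurons, ran the other way from Tlx3 and Pou4f1. Prph gave 110, 137 and 126 units on the early and 31.6, 52.0 and 63.2 units on the late arrays, and Prrxl1 gave 96.6, 307 and 182 against 49.0, 79.2 and 82.7 units. Neither overlapped between groups, and neither passed the filter for testing. Avil lay below the median on every array. The summed signal of the 5 genes was 422 to 652 units on the early and 541 to 639 units on the late arrays, so the sums overlapped.

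Pou6f1 (Emb or Brn5), a member expressed in brain, was bright in both groups. Its tested probe set (1452844_at) gave 3523, 2269 and 2371 units on the early arrays and 1810, 1883 and 1673 units on the late arrays. All early arrays lay above all late arrays, with early replicate 1 well above the rest. The log2 difference of 0.58 ± 0.23 (SE; 95% interval 0.03 to 1.13) did not pass (limma adjusted p = 0.114). It passed with an intensity trend and robust settings in the variance model (limma adjusted p = 0.0497), and without early replicate 1 it was 0.38 (limma adjusted p = 0.184). The second Pou6f1 probe set stood between 1.33 and 7.44 units on all arrays.

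Pou2f2 (Oct2), an activator of immunoglobulin genes in B cells that is also made in some neurons, had 3 probe sets, none above the median on any array. They ranged from 51.6 to 79.3, from 52.4 to 82.1 and from 39.0 to 52.8 units on the early arrays. On the late arrays they ranged from 44.8 to 96.6, from 44.4 to 59.2 and from 8.19 to 34.5 units. Only the dimmest separated the groups, at signals below the level tested. All 4 lymphocyte markers in the table also lay below the median on every array.

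Of 6 other POU family genes, 4 were in the table. Pou5f2, a testis-enriched gene, was the only 1 tested, with an early mean of 460 ± 20.1 and a late mean of 438 ± 43.2 units (SD, n = 3 each; limma adjusted p = 0.776). Pou2f3, Pou4f3 and Pou5f1, the pluripotency factor Oct4, lay below the median on every array.

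Partners and coactivators of POU proteins were read by 1 probe set per gene, the one with the highest mean log2 signal. Of 17 listed, 16 were in the table and 11 were tested; 2 were higher in the early group, none in the late group and 9 did not pass. Among all 11071 genes tested this way, 30.1% were called, 16.2% with the early and 13.9% with the late group above. The list's median log2 difference was 0.14 against -0.03 over all tested genes.

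Myt1l, a zinc finger repressor of non-neuronal genes that is used with Pou3f2 to make neurons from fibroblasts, averaged 12544 ± 2130 units on the early arrays and 2973 ± 339 on the late ones, 4.20-fold apart (limma adjusted p = 0.00208). Sox11, an HMG-box factor of young neurons and a partner of class III proteins, averaged 27354 ± 3224 early and 16658 ± 1683 late, 1.64-fold higher early (limma adjusted p = 0.0363). The Sox11 call was lost without any 1 of 5 arrays, all but early replicate 1 (limma adjusted p up to 0.139). Sox2, a progenitor partner of class III proteins named here with its value already seen, averaged 728 ± 380 early and 1106 ± 137 late and did not pass (limma adjusted p = 0.244).

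Genes reported as targets of class III or class IV proteins in neural cells were taken as a list that holds genes of both progenitors and neurons, and both activated and repressed ones. Of 20 listed, 19 were in the table and 15 were tested, of which 5 were higher in the early group, 2 in the late group and 8 did not pass. Among all genes tested this way, 16.2% were called higher early and 13.9% higher late. The list's median log2 difference was 0.56 against -0.03 over all tested genes. The list's direction is not independent evidence, since it was drawn up with earlier results known.

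Ablim1, an actin-binding protein of axons, averaged 1392 ± 143 early and 205 ± 121 late, 7.51-fold higher early (limma adjusted p = 0.00483). Ina, the neuronal intermediate filament internexin, was 3.86-fold higher, Syn1, a synaptic vesicle phosphoprotein, 3.65-fold and Nefl, the light neurofilament, 3.11-fold. Fabp7, the fatty acid binding protein of radial glia, was the smallest early call and is named after its value was seen. It was 1.85-fold higher early (limma adjusted p = 0.0354), a call lost without any 1 of 5 arrays, all but late replicate 2 (up to 0.115). Without both replicates 3, Ablim1 no longer passed (limma adjusted p = 0.0679).

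Both late calls were of transcription factors. Eomes, a T-box factor that lies downstream of Pou4f2 in retinal ganglion cells, gave 638, 237 and 540 units on the early and 1499, 1869 and 1340 units on the late arrays. The late arrays were 3.58-fold higher (limma adjusted p = 0.0211), a call lost without any 1 late array (up to 0.0768). Neurod1, which Pou4f1 is reported to repress in sensory neurons, averaged 13752 ± 123 late and 5650 ± 398 early, 2.44-fold higher late (limma adjusted p = 0.00378, and 0.0578 without both replicates 3).

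**Figure D4:**
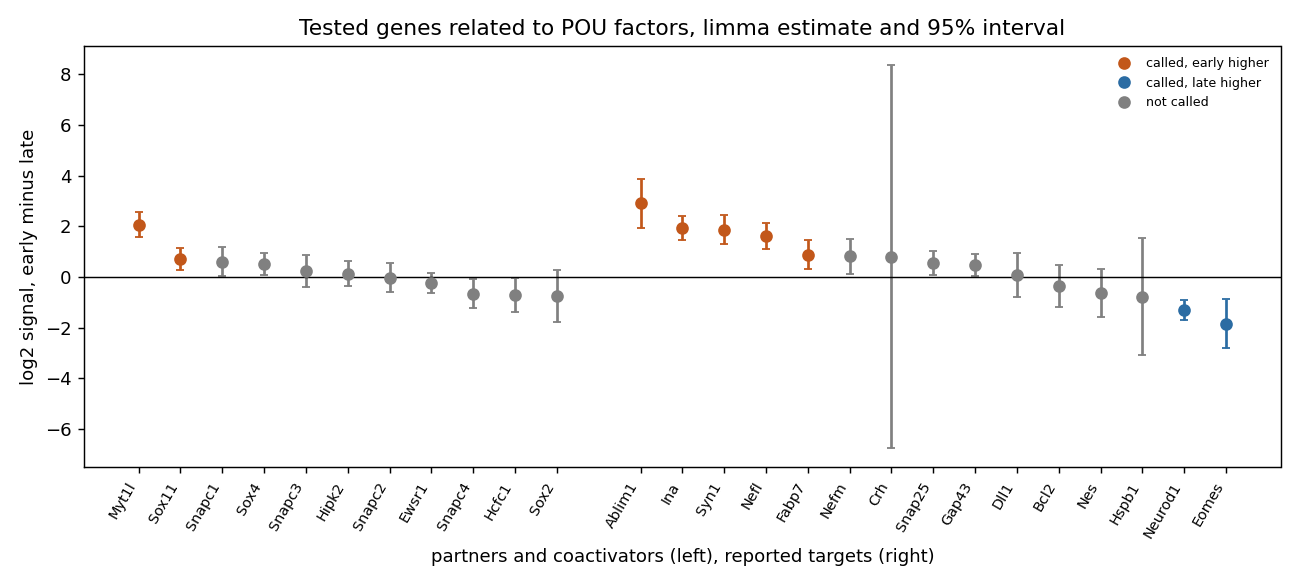
Log2 difference in signal, early minus late, with 95% limma intervals from 3 against 3 arrays for the tested partners and coactivators (11 genes, left) and the tested reported targets (15 genes, right), coloured by call. Myt1l and Sox11 are the called partners, and Crh, a neuropeptide gene picked out for its spread, has a very wide interval, as its early arrays gave 392, 0.565 and 1921 units.

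The genes whose signals ran most like a member over the 6 arrays were picked by Pearson correlation of log2 signals, as a description. For the dimmer Pou3f1 probe set, the member with the largest early difference, they were Plppr3 (r = 0.999), Nmnat2 (0.998), B4galnt1, Fam124a and Car11. Of 19457 candidate probe sets, 1797 had r above 0.9, so these 5 are the top of a long list. For Pou4f1 they were Psmd13 (r = 0.998), Ice2, Wipi2, Tbc1d15 and Rbmx, and 742 of 19458 probe sets had r above 0.9.

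Several measures of the samples moved with the groups, and their part in the POU differences was not tested. Atoh1, whose control region drives the CreER, averaged 690 ± 273 units on early and 8642 ± 1588 units on late arrays. Early arrays resembled each other less (Spearman 0.874 to 0.893 over the whole table) than late arrays did (0.938 to 0.945). The 3′ to 5′ ratio of the Actb control, a sign of RNA quality, was 17.4 to 26.2 on early and 12.9 to 16.1 on late arrays. For the Gapdh control the ratio was 10.6 to 13.2 on early and 9.47 to 12.1 on late arrays, which overlapped. Xist gave 10545, 8141 and 166 units on early replicates 1, 2 and 3, and 14178, 18008 and 19797 units on the late ones. The Y-linked Eif2s3y gave 1077, 1131 and 1772 units on the early and 826, 942 and 14.1 units on the late arrays. Neither gene overlapped between groups, Xist being higher late and Eif2s3y higher early, and neither was called (limma adjusted p = 0.232 and 0.291). The Y-linked Kdm5d and Uty overlapped.

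Markers of other cell types were examined in the same way. The summed signal of 7 genes of GABAergic neurons and midbrain was 811 to 1598 units on early and 355 to 570 units on late arrays, with Gad1 and Gad2 called higher early and Pax7, Tal2 and Gata3 below the median throughout. Slc32a1 overlapped between groups, with 570 units on early replicate 1, and was not called (limma adjusted p = 0.194). Ptf1a was not tested. For 4 genes of oligodendrocyte precursors the sum was 2547 to 3083 against 847 to 1103 units, with Olig1 and Olig2 higher in the early and Pdgfra in the late group. For 7 genes of radial glia and astrocytes it was 8798 to 10310 against 4448 to 6940 units, most of it Fabp7. In that list Fabp7 and Aldh1l1 were called higher early, and Slc1a3 was called higher late (337 ± 76.0 early, 633 ± 111 late; limma adjusted p = 0.0363). Hes5 and Tnc were tested and not called, and Gfap and Aqp4 lay below the median. For 4 genes of microglia and leukocytes the sum was 360 to 1049 against 174 to 304 units, most of it Csf1r. Cx3cr1 averaged 78.7 units on the early and 76.9 units on the late arrays, and Aif1 lay below the median on every array. Ptprc was above the median on early replicate 2 alone, at 204 units. Only Csf1r was tested in that list, and it was called higher early. Several of these calls were lost when 1 array was left out, for 5 arrays in Gad1 and Slc1a3, 4 in Aldh1l1 and Csf1r, and 2 in Gad2 and Pdgfra (limma adjusted p up to 0.152, for Gad1). Sox10, a marker shared by oligodendrocyte precursors and the Schwann cells in which Pou3f1 acts, stood at 98.9 to 148 units on the early and 104 to 128 units on the late arrays. Sums for endothelium (391 to 2059 against 194 to 1128 units) and for mesenchyme and pericytes (302 to 1212 against 151 to 406 units) overlapped, and all erythroid markers in the table lay below the median. Of 11 listed genes of the Atoh1 lineage, 10 were tested, with 6 late calls and 2 early calls (Lhx2 and Lhx9). The late calls were Atoh1, Barhl1, Pax6, Zic2, Nhlh1 and Neurod1, the last also counted among the reported targets. Among all genes read by 1 probe set, 13.9% were called higher late and 16.2% higher early. The late call of Zic2 was lost without any 1 of 4 arrays and the early call of Lhx2 without late replicate 1.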

How the data were processed

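The authors deposited 1 intensity per probe set and array, and MAS5 is named in the submitters' processing notes. Its version, the detection calls and any pooling of embryos were not given in the sources used here. By its values, each deposited column is a linear intensity scaled so that the mean without the lowest and highest 2% is 500. Of 45101 probe sets, 34958 had 1 gene symbol in the platform annotation, 932 several and 9211 none; 64 control probe sets were left out.

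Log2 intensities were compared with limma 3.58.1 (lmFit, eBayes) in R 4.3.3 (a two-sided test of early minus late) over probe sets above the array median in at least 3 of 6 arrays. Adjusted p-values are Benjamini-Hochberg over all tested probe sets, also for genes read by 1 probe set. The test was tried on simulated data that gave both groups the same spread. In the real data the median SD of log2 signal was 0.386 early and 0.212 late, so that trial does not cover unequal spread. Means carry the SD over 3 arrays, and folds are powers of 2 of the mean log2 difference. Every member is described; from each related list, calls were named, at most 4 in each direction by size, and 2 more as values where none passed. The members, lists and tests were chosen with earlier results of these data known. Alternatives were normalization, offset, floor, filter, variance model, threshold, replicate block and left-out arrays. Signals scaled to 1 trimmed mean cannot show a change in total RNA per cell.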

Additional observations from a re-analysis of the deposited data

How the results depend on the processing

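Of 165 values of the 10 tested POU probe sets under the alternatives, 150 kept their direction and their side of the threshold, 8 lost a call, 3 gained one and 4 changed sign. Those that changed sign were never called: Pou3f3 ranged from -0.00387 (without early replicate 2) to 0.21 with 1 array left out (0.08 with all), and the second Pou3f4 probe set gave 0.10 with low signals raised to the array median, 0.59 with early and late replicate 3 both left out and a range from -0.90 to 0.49 (without early replicate 3) with 1 array left out (-0.14 with all). Of the 8 lost calls, 7 were Pou4f1 (limma adjusted p from 0.00913 to 0.165 over its alternatives).

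The count of 5 called POU probe sets became 3 with the filter at the 70th percentile, which no longer tests Pou4f1 and the dimmer Pou3f1 probe set, and 3 with both replicates 3 left out, and 4 to 6 otherwise. The 1 late call became 0 with no filter, with the filter at the 70th percentile, with both replicates 3 left out and at an adjusted p of 0.01, and ranged from 0 to 1 when 1 array was left out.

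Over all probe sets, the 6094 calls (3155 early, 2939 late) became 2719 (1559 and 1160) with no filter, 1481 (830 and 651) with both replicates 3 left out and 2433 (1449 and 984) at an adjusted p of 0.01. Leaving out 1 array gave 2937 to 5847 calls in all, 1779 to 2891 early and 1158 to 2986 late. The replicate number as a block gave 3590 calls (2003 and 1587), 5 POU calls, 1 called partner (early) and 5 called targets (4 early and 1 late). Deviations of same-numbered arrays from their group means correlated at -0.03, -0.07 and -0.005, and those of differently numbered arrays at -0.04 to 0.06. With 3 arrays in each group, these values cannot show whether same-numbered samples were paired.

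With no filter the partners' early count was 1 and the targets' late count 1, and with a gene's tested probe sets averaged the targets' late count was 4. Leaving out 1 array gave 1 to 3 early and 0 to 1 late partners, and 4 to 5 early and 1 to 3 late targets. The late partner and the third late target appeared without early replicate 1. The ratio changes between class III members kept their sign under an offset of 5.97 units, under the floor and when 1 array was left out. Dim signals limit the sizes of the Pou3f1, Pou4f1 and Pou2f2 differences.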
